A study of Mus musculus with 8 samples.

Results

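Oxidative phosphorylation subunits are the proteins of the mitochondrial respiratory chain and of ATP synthase. The members were the genes whose platform symbol names a subunit of complex I (Ndufa, Ndufb, Ndufc, Ndufs and Ndufv genes), complex II (Sdha to Sdhd), complex III (Uqcr genes and Cyc1), complex IV (Cox4 to Cox8 genes) or ATP synthase (Atp5 genes), together with the electron carrier Cycs. Complex I assembly factors, whose symbols start with Ndufaf, were left out. This gave 84 genes of 18193 with a probe set of their own, and 80 of them were among the 13983 genes bright enough to be tested. A gene was tested where its brightest probe set exceeded a working floor, log2 5.22, on at least 2 of the 8 arrays. Probe sets that carry several symbols were not used, so Ndufa11 and Ndufs6, whose probe sets also name a close relative, had no value, and Ndufb4 was read from a dim probe set.

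CD4+ T cells in primary culture, from mice of the BALB/c strain, gave the RNA, which was measured on Affymetrix mouse arrays, 2 per group. Cells were first cultured for 1 h, either unstimulated or on plate-bound antibody to CD3 with soluble antibody to CD28, which together engage the T cell receptor and its costimulatory receptor. A further 6 h followed with dorsomorphin at 4 µM or with its solvent DMSO. Dorsomorphin blocks AMPK, the kinase that senses cellular energy, and also the type I receptors of bone morphogenetic proteins. The 4 groups were thus control cells (unstimulated, DMSO), cells with dorsomorphin, stimulated cells (DMSO) and stimulated cells with dorsomorphin. All groups share the strain and the cell type, and the labels give neither the age of the mice nor whether the replicates were separate mice or cultures. A p-value here therefore reflects the variation among arrays alone, and that variation may be technical.

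In oxidative phosphorylation, complexes I and II pass electrons from NADH and succinate to ubiquinone, complex III passes them on to cytochrome c, and complex IV hands them to oxygen. Complexes I, III and IV pump protons as they do so, and ATP synthase uses the proton gradient to make ATP. Most subunits are encoded in the nucleus and some core subunits in mitochondrial DNA. Resting T cells draw much of their ATP from this pathway, and activated T cells raise glycolysis while they also build more mitochondria. NRF1, the ETS factor GABP, YY1, MYC and CREB are transcription factors known to act on genes of the pathway.

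Promoter sequences are shown for 6 members that changed in the comparisons that follow and whose promoters held a motif of CREB, NRF1 or MYC. They come from RefSeq on GRCm38.p6, which held promoters (250 bases before the start of the transcript to 50 after it) for 68 of the 84 members. Capitals mark TGACGTCA (the CREB site), GCATGCGC (the NRF1 core, found in both directions and overlapping itself in Atp5k) or CACGTG (the E-box that MYC can bind). All motifs were searched on both strands. Changed members that held only a motif of GABP or YY1, such as Ndufs8 and Ndufc1, are not shown. The Cycs stretch lies at chr6:50566570-50566819 on the minus strand, that of Uqcrfs1 at chr13:30545317-30545436 (minus), and that of Ndufb2 at chr6:39592445-39592564 (plus). The Ndufa10 stretch lies at chr1:92473759-92473878 (minus), that of Atp5g1 at chr11:96075632-96075751 (minus) and that of Atp5k at chr5:108434400-108434519 (minus).
Cycs: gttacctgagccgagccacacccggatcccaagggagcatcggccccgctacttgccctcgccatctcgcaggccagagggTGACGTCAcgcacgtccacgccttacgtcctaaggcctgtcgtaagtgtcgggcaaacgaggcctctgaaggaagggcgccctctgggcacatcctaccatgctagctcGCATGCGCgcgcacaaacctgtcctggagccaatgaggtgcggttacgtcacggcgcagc
Uqcrfs1: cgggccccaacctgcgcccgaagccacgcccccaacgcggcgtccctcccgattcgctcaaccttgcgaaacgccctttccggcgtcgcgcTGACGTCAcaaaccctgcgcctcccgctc
Ndufb2: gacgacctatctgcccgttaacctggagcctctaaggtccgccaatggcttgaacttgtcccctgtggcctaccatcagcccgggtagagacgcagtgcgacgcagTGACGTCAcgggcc
Ndufa10: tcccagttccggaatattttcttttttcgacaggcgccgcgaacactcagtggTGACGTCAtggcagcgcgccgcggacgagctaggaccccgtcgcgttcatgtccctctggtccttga
Atp5g1: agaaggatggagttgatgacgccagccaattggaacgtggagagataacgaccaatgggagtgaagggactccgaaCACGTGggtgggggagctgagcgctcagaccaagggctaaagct
Atp5k: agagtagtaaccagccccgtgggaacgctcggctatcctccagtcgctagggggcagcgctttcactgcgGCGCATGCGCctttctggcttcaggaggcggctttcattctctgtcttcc

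The CREB site TGACGTCA was in 4 of 73 member promoters (5.48%), against 1.79% of all 32851 promoters and 2.72% of those of tested genes. Its 4 holders were Cycs, Ndufa10, Ndufb2 and Uqcrfs1, and each changed in at least 1 of the 4 comparisons between groups, as did 28.7% of the 80 tested members and 36.7% of all tested genes. Its first base lay at -169 from the transcript start in Cycs, -67 in Ndufa10, -29 in Uqcrfs1 and -14 in Ndufb2. The NRF1 core was in 13.7% of member promoters, 2.71% of all promoters and 4.64% of those of tested genes. In the same order the ETS motif CCGGAAG was in 23.3%, 8.86% and 15.5%, the YY1 motif AAGATGGC in 12.3%, 2.75% and 3.9%, and the E-box in 9.59%, 7.15% and 9.23%, so the E-box share of members was near that of tested genes. Of the 12 genes that rose with stimulation and had a promoter, 3 held the CREB site, 3 the ETS motif, and 1 each the NRF1 core, the YY1 motif and the E-box. Of the 13 that fell with dorsomorphin in stimulated cells and had a promoter, the motifs were in 3, 3, 2, 2 and 1 in the same order. Of the 6 that fell with it in unstimulated cells, they were in 1, 0, 0, 1 and 0. Among all members the holders numbered 4, 17, 10, 9 and 6, so most holders of the other motifs were in none of these lists. Any link between a motif and the changes was not tested. A match describes the letters of the window only and does not show that a factor binds there.

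Member signals were high on these arrays: 77 of the 80 tested members exceeded the floor on all 8 arrays. Ndufb4, Cox4i2 and Cox6b2 did so on fewer. Median signal over all probe sets was 45.4 to 74.5 per array. Replicate 2 carried more member signal than replicate 1 in every group, with 57 of 80 members higher in control cells, 56 with dorsomorphin, 74 in stimulated cells and 71 in stimulated cells with dorsomorphin. The median difference of members between replicates was 0.11, 0.19, 0.37 and 0.46 on the log2 scale in that order, while over all tested genes it lay between -0.14 and -0.02. The 3' minus 5' log2 signal of actin was 0.33 on both stimulated arrays and 0.47 to 0.80 on the others, while that of Gapdh was -0.49 and -0.32 on the stimulated arrays, within the -0.59 to -0.18 of the others.

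Markers of CD4+ T cells were well above the floor on all arrays. Some markers of other cells, such as Lyz2, were above it too. Others, such as Itgam, Cd79a and Ncr1, were near or under it, and Klra8 was under it on all 8 arrays. The summed signal of 6 T cell markers (Cd3d, Cd3e, Cd3g, Cd4, Cd5 and Cd28) was 63300 and 64300 in control cells, 21500 and 29500 with dorsomorphin, 45700 and 46500 in stimulated cells and 31300 and 31500 in stimulated cells with dorsomorphin. That of 10 myeloid and dendritic markers was 5400 and 10700 in control cells and 1990 to 2430 on the other 6 arrays. Of these 10, 3 fell with stimulation (Lyz2, Csf1r and Adgre1), and 2 of the 3 (Csf1r and Adgre1) also fell with dorsomorphin in unstimulated cells. These are 30% and 20%, against 14.4% and 11.1% of all tested genes. Of the T cell markers, Cd3d, Cd3e, Cd3g and Cd5 fell with dorsomorphin in unstimulated cells (66.7%, against 11.1%). In stimulated cells Cd3g and Cd5 fell with it (33.3%, against 12.4%), while Cd28 rose (16.7%, against 9.71%). B cell markers (5 genes) summed to 203 to 549, 2 CD8 markers to 160 to 487 and 3 NK markers to 38.3 to 480. The floor is a signal of 37.3 per gene, so the lowest NK sum does not show that NK cells were present. Of the B cell markers, Cd79b fell with stimulation and rose with dorsomorphin in stimulated cells, and Ms4a1 fell with it in unstimulated cells. Each is 20% of that list, against 14.4%, 9.71% and 11.1% of all tested genes in that order. The part of these other cells in the results was not tested. In such bulk samples fewer cells of a type and less RNA per cell cannot be told apart.

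Stimulation without dorsomorphin raised 14 of the 80 members and lowered 1. These are 17.5% and 1.25% of members, against 8.98% and 14.4% of all tested genes (limma, Benjamini-Hochberg adjusted p under 0.05 over all 13983 genes). The genes that rose were Cycs, the complex III subunits Uqcrq, Cyc1 and Uqcrfs1, 8 complex I subunits led by Ndufb1, and Atp5g1 and Atp5md of ATP synthase. The gene that fell was Cox7a2l. The median log2 fold was 0.62 over members and -0.27 over all tested genes, and 66 of 80 member folds were above 0. Both stimulated arrays lay above both control arrays for 58 members, or 72.5%, against 25.1% of all genes, and below them for 8, or 10%, against 42%. With each array centred on its median 5 members and 1001 of all genes rose, and with only the arrays compared 4 and 745 did. Leaving out either control array or stimulated replicate 2 lost calls across all tested genes, members included. The member median was 0.98 (all genes 0.08) with median centring. It was 0.54 without control replicate 1, 0.67 without control replicate 2 and 0.41 without stimulated replicate 2.

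Complex III had a median log2 fold of 0.89 over 9 genes, ATP synthase 0.70 over 17, complex II 0.47 over 4, complex I 0.43 over 35 and complex IV 0.22 over 14. All 17 ATP synthase members had folds above 0, from 0.23 (Atp5h) to 1.97 (Atp5g1). Complex IV spanned -1.97 (Cox7a2l) to 1.07 (Cox7a2), and by the brightest probe set none of its members passed the test upward. Cox5a (0.97, adjusted p = 0.0559) and Cox5b (0.88, adjusted p = 0.0513 by limma) fell just short. In a fit over 31996 probe sets, added after the data were seen, both other tested probe sets of Cox5a passed upward (1.05 and 1.10). So did a further probe set of Cox5b (1.22), whose remaining ones did not pass (0.82, 1.06 and -0.76). Its 14 genes include the dim forms Cox4i2, Cox6a2, Cox6b2 and Cox8c, with folds of 0.41, -0.31, -0.90 and -0.86. The complex IV median therefore rests partly on dim genes.

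**Figure D1:**
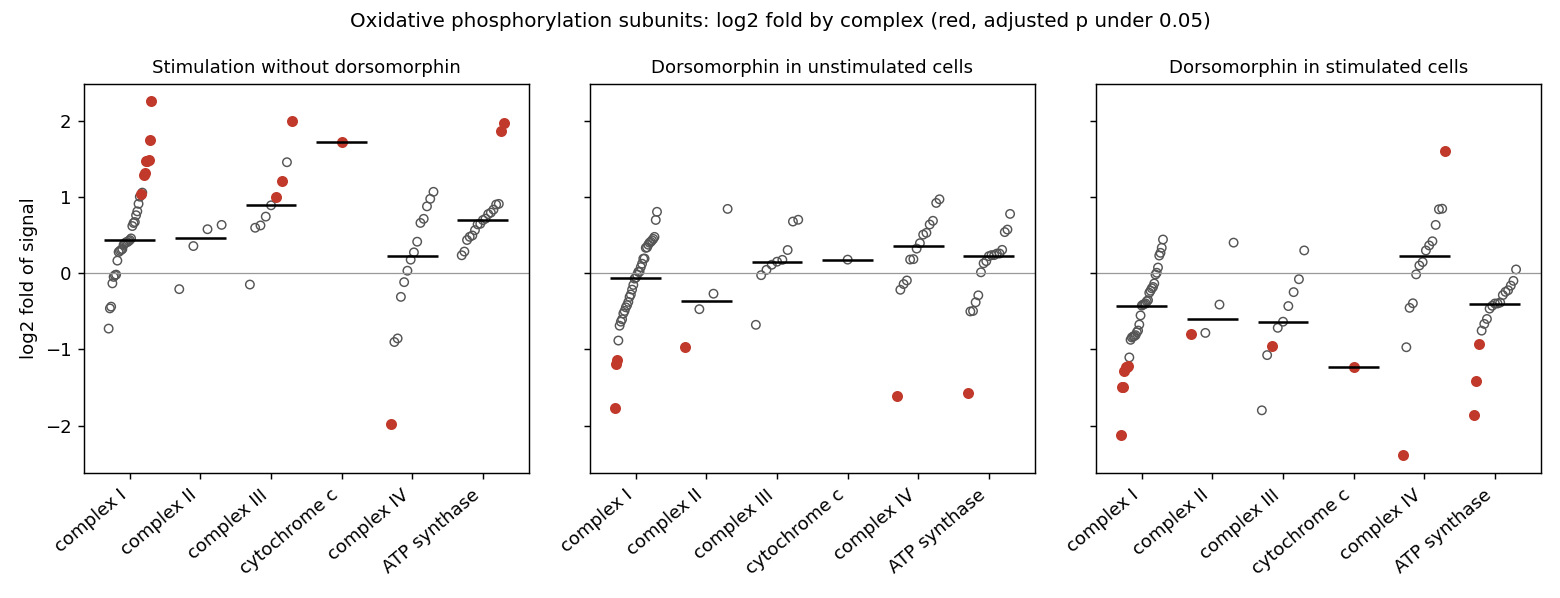
Log2 fold of signal for the 80 tested members, 1 point per gene, by complex, in the 3 comparisons named above the panels. Filled red points passed the test (adjusted p under 0.05), open points did not, and the bar is the median of the complex. With stimulation, red points lie above 0 except Cox7a2l, and with dorsomorphin they lie below 0 except Cox7a2l in stimulated cells.

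The 2 components that hand electrons from complex III to complex IV both rose. Cycs, the soluble carrier cytochrome c, which also triggers the caspase cascade when it leaves mitochondria, had log2 signals of 12.86 and 12.88 in control cells, 12.93 and 13.17 with dorsomorphin, 14.42 and 14.77 in stimulated cells and 13.01 and 13.72 in stimulated cells with dorsomorphin. The stimulated arrays were the highest and overlapped no other group. Its log2 fold was 1.72 ± 0.31 (SE; 3.30-fold; adjusted p = 0.0173 by limma). Cyc1, cytochrome c1, which passes electrons to Cycs, measured 11.69 and 11.82, 11.92 and 11.93, 12.68 and 13.23, and 11.90 and 12.11 in the same order of groups. It rose by 1.21 ± 0.26 (adjusted p = 0.0263), and again both stimulated arrays were the highest.

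Uqcrq, a small subunit next to cytochrome b, had the largest fold in complex III. Its log2 signals were 10.97 and 11.22 in control cells, 11.56 and 12.03 with dorsomorphin, 12.92 and 13.26 in stimulated cells and 11.44 and 12.60 in stimulated cells with dorsomorphin. The control arrays were lowest and the stimulated ones highest, a 3.99-fold difference (SE 0.43 on the log2 scale; adjusted p = 0.0262). Its 3 other tested probe sets were dim. Of these, 2 did not pass (log2 folds 0.16 and -0.04), and 1 passed upward. That 1 was under the floor in control cells, which bounds its rise at no less than 1.01-fold. Uqcrfs1, the Rieske iron-sulfur protein, went from 11.94 and 11.95 to 12.66 and 13.23, a log2 fold of 1.00 ± 0.27 (adjusted p = 0.0474), with no overlap.

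**Figure D2:**
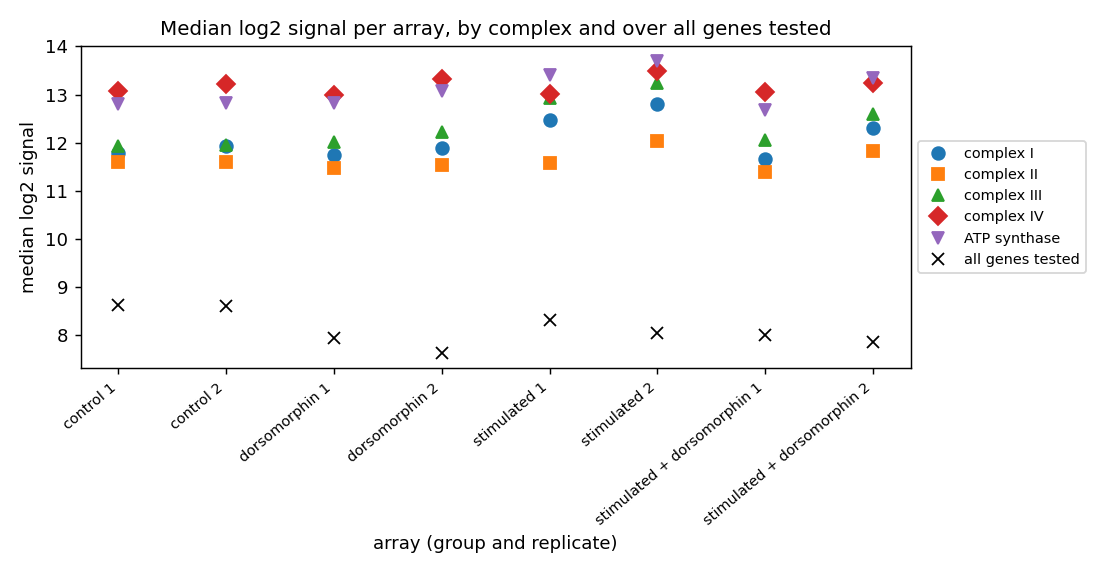
Median log2 signal on each of the 8 arrays, for the members of each complex and for all tested genes. Complex I, complex III and ATP synthase were highest on the stimulated arrays, with medians of 12.47 and 12.81, 12.92 and 13.23, and 13.40 and 13.70. Complex IV ranged from 12.99 to 13.49 over all 8 arrays.

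Ndufb1, a small accessory subunit of the complex I membrane arm, showed the largest member fold. Its log2 signals were 6.16 and 6.30 in control cells, 6.81 and 7.26 with dorsomorphin, 8.48 and 8.48 in stimulated cells and 7.12 and 7.37 in stimulated cells with dorsomorphin. Both stimulated arrays stood above all others and both control arrays below, and the log2 fold was 2.25 ± 0.25 (4.77-fold; adjusted p = 0.00851). Ndufa12, an accessory subunit, went from 11.40 and 11.78 to 13.06 and 13.63 (log2 fold 1.75 ± 0.43, adjusted p = 0.0370). Ndufab1, the mitochondrial acyl carrier protein, which also serves fatty acid synthesis, went from 11.65 and 11.69 to 12.84 and 13.47 (1.49 ± 0.33, adjusted p = 0.0284).

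In none of these did the stimulated and control arrays overlap. Ndufa5, an accessory subunit, measured 10.82 and 11.02 in control and 12.07 and 12.72 in stimulated cells, a log2 fold of 1.48 ± 0.40 (adjusted p = 0.0462). The other 4 that rose were Ndufb6, Ndufb2 and Ndufb8 of the membrane arm and Ndufs8, a core subunit that carries iron-sulfur clusters, with log2 folds of 1.04 to 1.47. Among the complex I members that did not pass, Ndufa6 had the lowest fold, -0.73 (adjusted p = 0.111).

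ATP synthase gave 2 genes that rose. Atp5g1, which encodes subunit c of the proton-driven ring, had log2 signals of 10.56 and 10.89 in control cells, 10.35 and 10.53 with dorsomorphin, 12.38 and 13.02 in stimulated cells and 10.39 and 11.30 in stimulated cells with dorsomorphin. The stimulated arrays were the highest by over 1 log2 unit, and the log2 fold was 1.97 ± 0.39 (3.93-fold; adjusted p = 0.0219). Atp5md, a small subunit that links ATP synthase dimers, went from 11.27 and 11.82 in control to 13.13 and 13.70 in stimulated cells, a log2 fold of 1.87 ± 0.42 (adjusted p = 0.0287). Its dorsomorphin arrays, at 12.04 and 12.61, also lay above control without passing the test (adjusted p = 0.268).

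**Figure D3:**
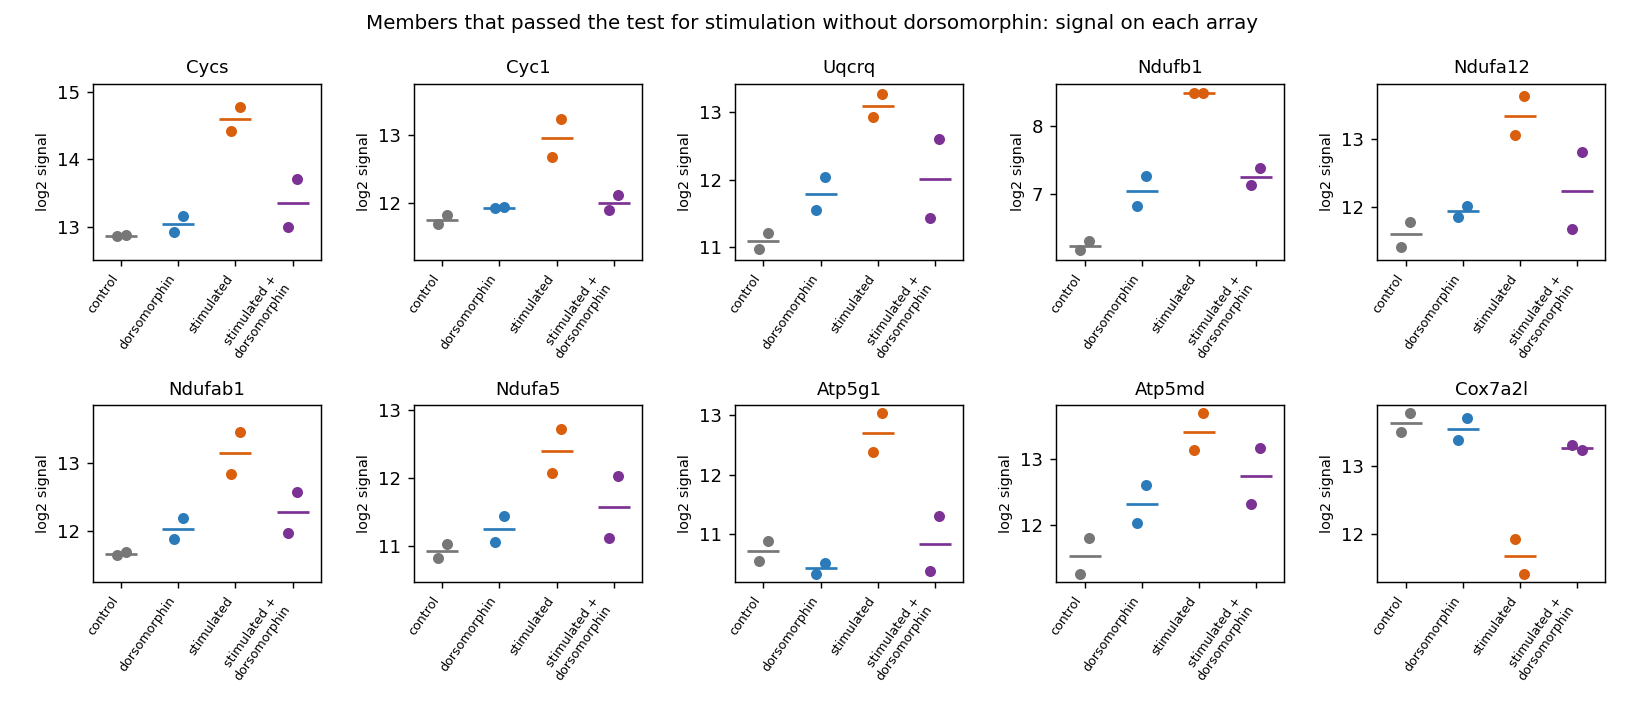
Log2 signal of 10 named members that passed the test for stimulation, 1 point per array, with a bar at the mean of each group's 2 arrays. In 8 of the 10 panels both stimulated arrays are above all others. In the Atp5md panel they overlap the stimulated arrays with dorsomorphin (12.33 and 13.17), and in the Cox7a2l panel they are the lowest, at 11.93 and 11.41.

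Cox7a2l went the other way. It encodes SCAF1, a relative of a complex IV subunit that joins complex III to complex IV in supercomplexes. Its log2 signals were 13.51 and 13.78 in control cells, 13.38 and 13.71 with dorsomorphin, 11.93 and 11.41 in stimulated cells and 13.31 and 13.23 in stimulated cells with dorsomorphin. The stimulated arrays alone were low, with a log2 fold of -1.97 ± 0.27 against control (3.93-fold lower; adjusted p = 0.0118). Dorsomorphin in stimulated cells was accompanied by a rise of 1.60 ± 0.27 (3.04-fold; adjusted p = 0.0142). The gene's other 2 probe sets gave log2 folds of -2.18 and -2.27 with stimulation and 1.87 and 1.95 with dorsomorphin in stimulated cells, all past the threshold in a fit over 31996 probe sets. That fit was added after the data were seen.

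Complex IV uses different isoforms in different tissues, and several tissue-restricted or inducible forms were below the floor or dim. Cox7a1, the muscle form, stayed below the floor on all 8 arrays (log2 3.16 to 4.96), as did Cox8b (1.46 to 4.99). Cox7b2 exceeded it on 1 array (-0.36 to 5.26), and so did Ndufa4l2 (3.01 to 5.88), a paralog of Ndufa4 induced by hypoxia. None of these 4 was tested. Cox4i2, the lung form, measured 5.08 to 6.82, Cox6a2 6.26 to 7.51, Cox6b2 3.93 to 7.07 and Cox8c 7.37 to 8.74, and none passed the test in any comparison.

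The widely expressed forms were bright, and none of those named here passed the test in any comparison. Cox4i1 measured 13.80 to 14.27 over all arrays, with log2 folds of 0.03 for stimulation, 0.18 for dorsomorphin in unstimulated cells and 0.10 for dorsomorphin in stimulated cells. Cox6a1 measured 14.33 to 14.95, Cox6b1 13.24 to 14.39 and Cox8a 12.20 to 13.26. Cox7a2 (13.27 to 14.61) had a stimulation fold of 1.07 and Ndufa4 (12.53 to 13.69), which is grouped here with complex I by its symbol and is now counted with complex IV, 0.81, neither past the threshold (adjusted p = 0.122 and 0.178).

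Dorsomorphin in unstimulated cells lowered 6 of the 80 members and raised none. That is 7.5% and 0% of members, against 11.1% and 1.92% of all tested genes. At an unadjusted p under 0.05, 9 of the 80 members were lower and 1 higher, beside 4389 of the 13983 tested genes in either direction. The genes that fell were Ndufc1, Ndufa10 and Ndufv3 of complex I, Sdha of complex II, Cox5b of complex IV and Atp5c1 of ATP synthase. The median log2 fold of members was 0.13, against -0.24 over all genes, and 47 of 80 folds were above 0. Both dorsomorphin arrays lay below both control arrays for 26 members and above them for 33, or 32.5% and 41.2%, against 42.3% and 23.2% of all genes. With each array centred on its median no member passed, while 752 of all genes fell. With no filter, the mean of all probe sets or only the arrays compared, 2 members fell, beside 821, 901 and 816 of all genes. Leaving out either control array or either dorsomorphin array lost calls across all tested genes, members included. The member median was 0.34 (all genes -0.02) with median centring, 0.01 (-0.09) with quantile normalization, 0.04 without control replicate 1 and 0.03 without dorsomorphin replicate 2.

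Ndufc1, an accessory subunit of the membrane arm, had log2 signals of 11.79 and 11.78 in control cells, 10.30 and 9.72 with dorsomorphin, 12.48 and 12.91 in stimulated cells and 10.32 and 10.82 in stimulated cells with dorsomorphin. The dorsomorphin arrays were low in both states and overlapped neither group without the drug. The log2 fold was -1.77 ± 0.32 in unstimulated cells (3.42-fold lower; adjusted p = 0.0255) and -2.12 ± 0.32 in stimulated cells (4.36-fold lower; adjusted p = 0.0107). Its second probe set gave -1.62 and -1.99, both past the threshold.

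Cox5b, a nuclear-encoded subunit on the matrix side of complex IV, measured 12.97 and 13.15, 11.41 and 11.48, 13.70 and 14.17, and 11.48 and 11.61 in the same order of groups. The 4 dorsomorphin arrays lay close together and below the other 4. It fell by 1.62 ± 0.25 on the log2 scale in unstimulated cells (3.06-fold; adjusted p = 0.0186) and fell by 2.39 ± 0.25 in stimulated cells (5.25-fold; adjusted p = 0.00593). Of its 4 other tested probe sets, 3 fell in both states and 1 did not pass, with log2 folds of 0.56 and 0.77.

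Atp5c1, the rotor shaft (gamma subunit) of ATP synthase, measured 13.46 and 13.45 in control cells, 12.02 and 11.75 with dorsomorphin, 13.67 and 14.10 in stimulated cells and 12.13 and 12.81 in stimulated cells with dorsomorphin. It was low on all 4 dorsomorphin arrays, with log2 folds of -1.57 ± 0.31 (adjusted p = 0.0318) and -1.42 ± 0.31 (adjusted p = 0.0279) in unstimulated and stimulated cells. Ndufa10, an accessory complex I subunit related to nucleoside kinases, measured 12.22 and 12.15, 11.04 and 10.96, 12.47 and 12.82, and 11.30 and 11.52. Its log2 folds were -1.19 ± 0.23 (adjusted p = 0.0296) and -1.23 ± 0.23 (adjusted p = 0.0173). By its second probe set, whose 4 dorsomorphin arrays lay under the floor, it was at least 2.11-fold lower in unstimulated and at least 3.21-fold lower in stimulated cells.

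Complex II had 1 gene that fell. Sdha, the flavoprotein that oxidises succinate and so also serves the citric acid cycle, measured 12.28 and 12.12 in control cells, 11.26 and 11.22 with dorsomorphin, 11.91 and 12.07 in stimulated cells and 11.10 and 11.28 in stimulated cells with dorsomorphin. The dorsomorphin arrays were the lowest in both states, with log2 folds of -0.96 ± 0.21 (adjusted p = 0.0385) and -0.80 ± 0.21 (adjusted p = 0.0443). Its other 2 tested probe sets did not pass in either state, with log2 folds of -0.39 and 0.75 for the brighter and 0.62 and 0.56 for the dimmer. Sdhb, its iron-sulfur partner, had log2 folds of -0.47 and -0.78, and the membrane anchors Sdhc and Sdhd had -0.27 and -0.41, and 0.84 and 0.40, none past the threshold.

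Ndufv3, an accessory subunit of the NADH-oxidising module, fell in unstimulated cells. Its log2 signals were 12.07 and 12.02 in control cells, 11.22 and 10.59 with dorsomorphin, 11.54 and 11.67 in stimulated cells and 11.22 and 11.18 in stimulated cells with dorsomorphin. Control arrays were the highest, and the log2 fold was -1.14 ± 0.27 (adjusted p = 0.0458). In stimulated cells it was -0.41 (adjusted p = 0.333).

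**Figure D4:**
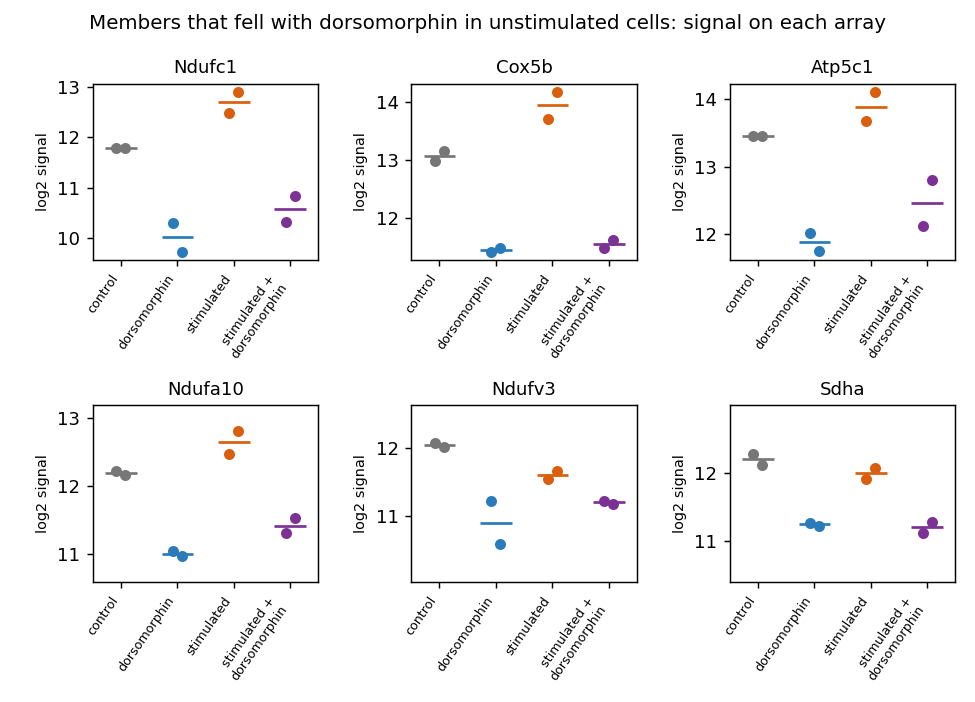
Log2 signal of the 6 members that fell with dorsomorphin in unstimulated cells, 1 point per array, with a bar at the mean of each group's 2 arrays. Cox5b stands at 11.41 to 11.61 on the 4 dorsomorphin arrays and at 12.97 to 14.17 on the other 4.

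Dorsomorphin in stimulated cells lowered 14 of the 80 members and raised 1, Cox7a2l. These are 17.5% and 1.25% of members, against 12.4% and 9.71% of all tested genes. The genes that fell were 7 of complex I (Ndufc1, Ndufb2, Ndufs8, Ndufs3, Ndufb1, Ndufa10 and Ndufb8), Sdha, Cyc1, Cycs, Cox5b, and Atp5g1, Atp5c1 and Atp5k of ATP synthase. The median log2 fold of members was -0.41, against 0.07 over all genes. By complex it was -0.64 in complex III, -0.60 in complex II, -0.43 in complex I, -0.40 in ATP synthase and 0.22 in complex IV. The dim complex IV forms Cox4i2, Cox6a2, Cox6b2 and Cox8c, with folds of 0.30, 0.63, 0.36 and 0.84, all lay above that median. Both arrays with the drug lay below both stimulated arrays for 39 members and above them for 5, or 48.8% and 6.25%, against 29.1% and 31.4% of all genes. With median centring 7 members fell, beside 1520 of all genes. With only the arrays compared 0 members fell, and 0 of the 13983 tested genes passed in either direction. Leaving out either control array, stimulated replicate 2 or either array of the stimulated cells with dorsomorphin lost calls across all genes, members included. The member median was -0.67 (all genes -0.18) with median centring and -0.32 (-0.06) with quantile normalization. It was -0.67 without replicate 2 and -0.18 without replicate 1 of the stimulated cells with dorsomorphin. Without stimulated replicate 2 it was -0.25, and without stimulated replicate 1 it was -0.63.

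Several of these genes are those already given for stimulation, and both comparisons use the same 2 stimulated arrays. Cycs fell by 1.24 ± 0.31 (adjusted p = 0.0387), Cyc1 by 0.95 ± 0.26 (adjusted p = 0.0499) and Atp5g1 by 1.86 ± 0.39 (adjusted p = 0.0248). Ndufb1 fell by 1.24 ± 0.25 (adjusted p = 0.0210). Uqcrq had a log2 fold of -1.08 ± 0.43, which did not pass (adjusted p = 0.133).

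Ndufb2 had log2 signals of 10.92 and 11.06 in control cells, 10.56 and 10.04 with dorsomorphin, 12.10 and 12.49 in stimulated cells and 10.72 and 10.88 in stimulated cells with dorsomorphin. Its fold was -1.50 ± 0.28 in stimulated cells (adjusted p = 0.0169), where the groups did not overlap, and -0.69 in unstimulated cells (adjusted p = 0.154). Ndufs8 measured 11.83 and 11.72, 11.27 and 11.22, 12.93 and 13.20, and 11.25 and 11.90 in the same order, with a fold of -1.49 ± 0.28 in stimulated cells (adjusted p = 0.0183). Ndufs3, a core subunit of the arm that reaches into the matrix, measured 11.65 and 11.73, 10.86 and 10.76, 12.14 and 12.56, and 10.89 and 11.23.

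Ndufs3 thus had low dorsomorphin arrays in both states, with a log2 fold of -1.29 ± 0.25 in stimulated cells (adjusted p = 0.0199) and -0.88 in unstimulated cells, short of the threshold (adjusted p = 0.0727). Uqcr11, a small complex III subunit, had the lowest fold of that complex, -1.80 ± 0.54, and did not pass (adjusted p = 0.0634). Its 2 stimulated arrays differed by over 1 log2 unit, at 11.78 and 12.83.

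The drug's comparisons in unstimulated and in stimulated cells share no array, but their tests were not independent. The fit took each gene's spread from all groups together, so a gene with a small spread could pass more easily in both states. With only the arrays compared, 2 members fell in unstimulated and 0 in stimulated cells, so the overlap could not be judged without the shared spread. In the fit of all groups, of the 6 and 14 members that fell, 5 were the same (Ndufc1, Cox5b, Atp5c1, Ndufa10 and Sdha). These are 83.3% of the first list and 35.7% of the second, and no overlap over all tested genes was set beside these shares. Across the 80 members the folds correlated at Pearson's r = 0.555 and Spearman's rho = 0.463, against r = 0.343 across all tested genes, where genes are not independent replicates. They had the same sign in 43 of 80 members.

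Stimulation in the presence of dorsomorphin changed no member past the threshold, nor any of the 13983 genes (0% in either direction, limma), and at an unadjusted p under 0.05 it changed 0 members and 539 genes. Member folds, 68 of them above 0, had a median of 0.15, against 0.06 over all genes. That median was -0.09 without replicate 2 of the stimulated cells with dorsomorphin, 0.40 without its replicate 1, 0.23 or 0.07 without a dorsomorphin array, and 0.03 with median centring, so its sign turned on 1 array. Both arrays were higher for 10 members (12.5%, against 17.3% of all genes) and lower for 3 (3.75%, against 10.2%). The smallest p-values belonged to Ndufb4, which exceeded the floor on 2 arrays, Atp5c1, Ndufb2, Ndufa10 and Ndufc1. Atp5c1 had the highest fold, 0.59 (adjusted p = 1).

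Whether the 2 stimulations differed was tested by the interaction, the dorsomorphin fold in stimulated cells minus that in unstimulated cells. No member passed (0 of 80), against 0.0358% of all genes upward and 0.0501% downward. At an unadjusted p under 0.05, 1 of the 80 members was above 0 and 6 below, beside 3687 of the 13983 tested genes in either direction. The median interaction over members was -0.44, against 0.35 over all genes. It was -0.92 (all genes -0.12) with median centring, -0.22 (0.09) with quantile normalization, -0.27 without stimulated replicate 2, and -0.20 or -0.69 without replicate 1 or 2 of the stimulated cells with dorsomorphin. The 5 members with the smallest p-values were Ndufb1 (-2.04 ± 0.35, adjusted p = 0.0624), Cox7a2l (1.70 ± 0.39, adjusted p = 0.0804), Cycs (-1.41 ± 0.44, adjusted p = 0.117), Cyc1 (-1.13 ± 0.37, adjusted p = 0.129) and Uqcrq (-1.78 ± 0.61, adjusted p = 0.141).

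Probe sets of a gene did not always move together. Of the members, 49 had another tested probe set. Atp5c1 fell with dorsomorphin by its brightest probe set, while another probe set measured 8.41 and 8.54 in control cells, 10.15 and 9.85 with dorsomorphin, 7.58 and 7.32 in stimulated cells and 10.33 and 9.79 in stimulated cells with dorsomorphin. By that other probe set it rose, with log2 folds of 1.52 ± 0.30 (adjusted p = 0.0378) and 2.61 ± 0.30 (adjusted p = 0.00884). The 4 dorsomorphin arrays were high there and low on the brightest probe set.

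Ndufs4, an accessory subunit of complex I, gave a second case. Its brightest probe set had log2 folds of 0.02 and -0.26 and did not pass, while another measured 6.80 and 7.08 in control cells, 10.45 and 11.04 with dorsomorphin, 7.35 and 7.33 in stimulated cells and 10.24 and 10.67 in stimulated cells with dorsomorphin. The dorsomorphin arrays were higher by 3.81 ± 0.32 (adjusted p = 0.0119) and 3.12 ± 0.32 (adjusted p = 0.00841). Ndufb8, which fell in stimulated cells, rose there by another probe set (1.34, adjusted p = 0.0238). Atp5g1 has a dim probe set that lay below the floor on all 4 arrays without the drug and at 5.19 to 6.06 with it. Which part of the transcripts these probe sets read was not tested.

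**Figure D5:**
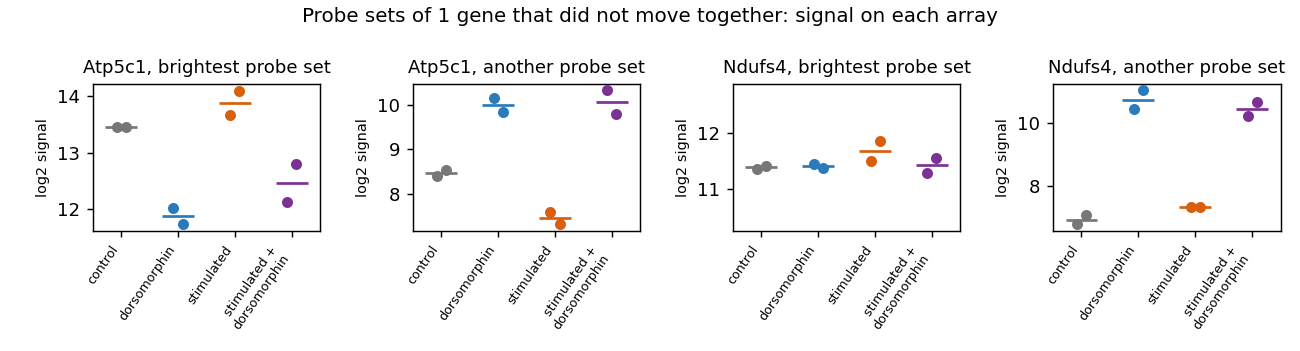
Log2 signal of 2 probe sets each of Atp5c1 and Ndufs4, 1 point per array, with a bar at the mean of each group's 2 arrays and a separate scale per panel. The 4 dorsomorphin arrays are low for the brightest probe set of Atp5c1 and high for its other one, and high for the other probe set of Ndufs4, whose brightest one stays between 11 and 12.

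Of 47 tested factors that assemble the complexes, 9 rose and 3 fell with stimulation (19.1% and 6.38%, against 8.98% and 14.4% of all tested genes). With dorsomorphin 0 rose and 8 fell in unstimulated cells (0% and 17%, against 1.92% and 11.1%), and 4 rose and 14 fell in stimulated cells (8.51% and 29.8%, against 9.71% and 12.4%). The median folds were 0.34, -0.32 and -0.55. Ndufaf4, a complex I assembly factor, rose by 3.35 ± 0.24 with stimulation (adjusted p = 0.00784) and fell by 2.61 ± 0.24 with dorsomorphin in stimulated cells (adjusted p = 0.00584). Uqcc2, which acts on cytochrome b, had folds of 2.53 and -3.15, and Sco2, a copper chaperone for complex IV, 2.45 and -2.80.

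Among those that fell with dorsomorphin in unstimulated cells, Bcs1l, which inserts the Rieske protein Uqcrfs1 into complex III, had a fold of -3.40 ± 0.59 (adjusted p = 0.0236). The complex IV factors Pet100 and Coa3 also fell, with folds of -2.48 and -2.20 there and -2.18 and -2.04 in stimulated cells. Tmem126b and Cox20, which assemble complexes I and IV, fell with stimulation (-1.35 and -0.96) and rose with dorsomorphin in stimulated cells (1.41 and 1.19).

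Of 20 regulators of mitochondrial biogenesis, 2 rose and 2 fell with stimulation (10% each way, against 8.98% and 14.4% of all tested genes). With dorsomorphin 1 rose and 4 fell in unstimulated cells (5% and 20%, against 1.92% and 11.1%), and 2 rose and 5 fell in stimulated cells (10% and 25%, against 9.71% and 12.4%). Myc measured 10.12 and 9.89 in control cells, 8.35 and 8.42 with dorsomorphin, 13.48 and 13.55 in stimulated cells and 8.53 and 8.73 in stimulated cells with dorsomorphin. The stimulated arrays stood far above the rest, with a fold of 3.51 ± 0.21 for stimulation (adjusted p = 0.00784) and -4.89 for dorsomorphin in stimulated cells (adjusted p = 0.00313). Pprc1, a coactivator of NRF1, rose by 2.42 with stimulation and fell by 2.05 with the drug in stimulated cells. Gabpb2, a beta subunit of GABP, fell with dorsomorphin in unstimulated and stimulated cells (-2.53 and -2.02), while Nrf1 rose by 1.58 ± 0.31 in unstimulated cells (adjusted p = 0.0307). The other GABP subunits, Gabpb1 (1.99 and 0.19) and Gabpa (0.25 and 0.05), did not pass with the drug in either state. Tfam, which packages mitochondrial DNA, had folds of 0.00, 0.23 and 0.16 for stimulation and for the drug in both states, none past the threshold.

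Of 23 citric acid cycle and pyruvate dehydrogenase genes, 3 rose and 2 fell with stimulation (13% and 8.7%, against 8.98% and 14.4% of all tested genes). With dorsomorphin 0 rose and 1 fell in unstimulated cells (0% and 4.35%, against 1.92% and 11.1%), and 2 rose and 5 fell in stimulated cells (8.7% and 21.7%, against 9.71% and 12.4%). Idh3a, Fh1 and Mdh2, enzymes of the cycle, rose with stimulation (1.86, 1.17 and 0.97) and fell with dorsomorphin in stimulated cells (-1.38, -1.19 and -0.98). Pdk2, a kinase that inhibits pyruvate dehydrogenase, was at least 3.11-fold lower in stimulated than in control cells, both stimulated arrays being under the floor. Ogdh fell with dorsomorphin in both states (-1.75 and -1.72).

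Of 25 genes for electron carriers, nucleotide exchange and uncoupling, 4 rose and 3 fell with stimulation (16% and 12%, against 8.98% and 14.4% of all tested genes). With dorsomorphin 0 rose and 4 fell in unstimulated cells (0% and 16%, against 1.92% and 11.1%), and 1 rose and 5 fell in stimulated cells (4% and 20%, against 9.71% and 12.4%). Coq4 and Coq7, which act in ubiquinone synthesis, rose with stimulation (2.63 and 2.57) and fell with the drug in stimulated cells (-3.43 and -2.42). Dhodh, which feeds electrons from pyrimidine synthesis to ubiquinone, rose by 1.62 with stimulation and fell with the drug in unstimulated and stimulated cells (-1.76 and -2.61). Slc25a5, an ADP/ATP carrier, rose by 1.44 with stimulation and fell by 1.45 with the drug in stimulated cells. No gene of these 4 lists passed for stimulation with dorsomorphin, and only Myc did for the interaction, a call that was lost with median centring, among other alternatives.

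Of the mitochondrially encoded subunits only ND5 had a probe set of its own. It measured 14.66 and 13.99 in control cells, 14.69 and 14.37 with dorsomorphin, 13.84 and 12.64 in stimulated cells and 14.51 and 14.27 in stimulated cells with dorsomorphin. Both stimulated arrays were lower than the others, by a log2 fold of -1.09 against control, which did not pass (adjusted p = 0.141).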

How the data were processed

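The values the authors deposited are linear intensity, for 45101 probe sets on each of 8 arrays. Per the submitters' processing notes RMA and affy were used, and no versions are stated. RMA gives log2 values, whereas the deposited values were linear with a trimmed mean of 500 on every array, so how they were made is unknown. The deposited intensity, as log2, was fitted without further normalization in limma 3.58.1 (R 4.3.3; lmFit and eBayes) for the 4 groups, with 4 residual and 1.90 prior degrees of freedom. P-values were two-sided and Benjamini-Hochberg adjusted (threshold 0.05) over all 13983 tested genes. Error terms are limma's SE, and a fold is the log2 difference of means unless given as n-fold.

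Genes were named through the platform annotation (34945 probe sets with 1 symbol, 932 with several and 9160 with none, beside 64 control probe sets) and represented by the probe set with the highest mean. Of the 84 members, 12 were read from probe sets with the suffix _s_at and 5 with _x_at, which can match other transcripts. The working floor is the 40th percentile of all values, and a group under it gives only a bound on a fold. Named members were those past the threshold with the largest folds and no overlap of arrays, up to 8 in each direction per comparison, the 5 smallest p-values where fewer than 4 passed, fixed paralog sets, and up to 4 genes per list. The members, the lists and these rules were chosen with earlier results of these data known. Motifs were searched as exact letters on both strands. The limma step was tested on simulated data. Alternatives were median centring, quantile normalization, an offset of 16, no filter or the 60th percentile, the mean of all probe sets, the replicate number as a block, trended and robust eBayes, only the arrays compared, and leaving out each array. The mean of probe sets with values held at the floor and the fit over all probe sets were added after the data were seen.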

Additional observations from a re-analysis of the deposited data

Results flagged for a closer look

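The dorsomorphin fold of Myc differed between stimulated and unstimulated cells, just inside the threshold. Its interaction log2 fold was -3.26 ± 0.30 (limma, adjusted p = 0.0492 over all tested genes), the drug's fold being -4.89 in stimulated and -1.62 in unstimulated cells. The call was kept in 5 of 9 other alternatives and in 1 of 8 fits that left out an array. It was lost with median centring (adjusted p = 0.0806), no filter (0.0998), the mean of all probe sets (0.0607) and the replicate block (0.0548), and the adjusted p ranged from 0.00146 to 0.221 over all alternatives, while the fold stayed between -3.74 and -3.15. All 4 arrays with dorsomorphin lay below all 4 without it. No tested member of the oxidative phosphorylation set passed that test.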

How the results depend on the processing

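With 2 arrays a group, the counts depended on single arrays and on the scaling. Members that rose and fell with stimulation numbered 5 and 1 with median centring, 12 and 2 with quantile normalization, 20 and 1 with the offset of 16, 5 and 1 with no filter, 27 and 1 with the 60th percentile, 9 and 1 with the mean of probe sets, 32 and 2 with trended robust eBayes, and 4 and 1 with only the arrays compared. For dorsomorphin in unstimulated cells they were 0 and 0, 0 and 7, 0 and 6, 0 and 2, 1 and 7, 1 and 2, 0 and 7, and 0 and 2 in the same order. For dorsomorphin in stimulated cells they were 1 and 7, 1 and 15, 1 and 17, 1 and 8, 1 and 19, 2 and 8, 1 and 26, and 0 and 0. The last of these, with only the arrays compared, came with 0 of all 13983 genes in either direction. The interaction gave 1 and 1 with the offset and with the 60th percentile and 1 and 5 with trended robust eBayes, and stimulation with dorsomorphin gave 0 and 0 throughout. Every group has a replicate 1 and a replicate 2, and what these numbers stand for is not said in the labels. The correlations of the replicate differences between groups were 0.069 to 0.178 over all genes and 0.124 to 0.601 over members. With only 2 numbers, whether they pair the samples is not settled. With the replicate block the counts were 22 and 1, 1 and 6, 2 and 18, and 0 and 0 for the interaction. Leaving out 1 array gave 0 to 13 that rose and 0 to 2 that fell with stimulation, 0 to 4 that fell with dorsomorphin in unstimulated cells, and 0 to 1 that rose and 1 to 10 that fell in stimulated cells. Without either control array, 0 members passed for stimulation or for dorsomorphin in unstimulated cells, and 5 fell with it in stimulated cells. Without stimulated replicate 2, 1 rose and 1 fell with stimulation and 1 fell with dorsomorphin. Without replicate 1 of stimulated cells with dorsomorphin 1 fell with the drug, and without its replicate 2, 9 did. Without dorsomorphin replicate 1, 2 fell with the drug in unstimulated cells, and without replicate 2, 0 did, while 9 rose with stimulation in both cases. In the mean of all probe sets the drug's fold in stimulated cells turned to 1.85 for Atp5g1 (adjusted p = 0.0201), 0.04 for Ndufb2, 0.60 for Atp5c1 and 0.69 for Sdha, averages that for all but Atp5c1 include values below the floor. With those values held at the floor, an alternative added after the data were seen, the folds were -0.51, -0.29, 0.60 (adjusted p = 0.0343) and 0.14 in that order, and the counts that rose and fell were 23 and 1 with stimulation, 3 and 5 with dorsomorphin in unstimulated cells, 4 and 17 in stimulated cells and 1 and 1 for the interaction. Of 28 named calls, 24 kept their direction under every alternative, but only 3 stayed past the threshold in all 10 alternatives that used every array or every array compared. Median centring lost 16 of the 28 and leaving out either control array lost 23. Relative to all genes, the member median for stimulation was 0.90 as deposited and 0.47 with quantile normalization. Median centring shifts every gene of an array alike, so it cannot change this difference. Over all genes, stimulation raised 1256 and lowered 2013 as deposited, 1001 and 1040 with median centring and 1536 and 1802 with quantile normalization.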
